A study of Mus musculus with 6 samples.

Results

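The genes described here were 37 imprinted genes of the mouse, found by symbol in a table of 54532 genes measured by RNA sequencing of the neonatal testis. All 37 were in the table. An imprinted gene is transcribed mainly from the copy inherited from the mother or mainly from the copy inherited from the father, and 13 of the 37 were grouped as maternally expressed, 21 as paternally expressed and 3 (Gnas, Inpp5f and Ddc) as expressed from a different copy by isoform or tissue. The grouping came from what is known of each gene, because the table sums both copies and the allele of origin was not measured. Whether a gene's class holds in the neonatal testis was therefore not tested, and genes other than these 3 may also vary by tissue.

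The study removed Srsf1, which encodes a splicing factor of the SR family, from the germ cells of male mice and compared whole testes at 5 days postpartum (dpp). The Ctrl group held 3 testis samples labelled Ctrl, whose alleles the labels do not spell out. The cKO group held 3 samples of Vasa-Cre Srsf1 Fl/del testes, in which 1 Srsf1 copy was deleted, the other was flanked by loxP sites, and Cre was driven by the germ cell gene Vasa, so that recombination was directed to germ cells. The study calls the 3 samples of each group biological replicates, the labels do not say whether each came from a separate animal, and p-values measure the spread between these samples.

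In the cell, the choice of parental copy is held by DNA methylation laid down in the egg or in the sperm lineage at an imprinting control region, and neighbouring genes under 1 such region form a domain in which maternally and paternally expressed genes often lie side by side. Somatic cells of the testis carry the imprints of both parents. Germ cells erase both and, in the male, write a paternal pattern. Many paternally expressed genes are known to promote fetal growth and many maternally expressed genes to restrain it.

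Levels are in FPKM, fragments scaled to the length of a gene's exons and to the size of the library, so that levels of different genes can be compared. Fold changes were taken on log2(FPKM + 1), which understates the difference for genes with low levels, and were tested with limma over the 16206 genes averaging 0.5 FPKM or more. Of the 37 imprinted genes, 33 were tested. Slc22a18, Usp29, Kcnq1ot1 and Rasgrf1 had lower means and were not. The table gave back 15448191 to 18964743 whole reads per sample, at which 3 reads on a gene of 1 kb stand for 0.158 to 0.194 FPKM.

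Srsf1 itself (chr11:88047373-88053755, forward strand) measured 82.1, 89.1 and 88.4 FPKM in Ctrl 1, 2 and 3 and 45.1, 46.3 and 51.6 FPKM in cKO 1, 2 and 3. The groups did not overlap, and the cKO mean was 55.1% of the Ctrl mean (log2 fold change -0.85, SE 0.087, adjusted p = 0.0578), which missed the threshold of 0.05. The summed level of 18 germ cell markers was 190.8 to 478 FPKM in Ctrl and 45.6 to 89.6 FPKM in cKO. All 17 that were tested had their 3 cKO values under the Ctrl range, beside 12.8% of all tested genes. Ctrl 2 stood apart, with the highest value of its group in all 17 of these markers, so the main counts below are also given without it. In whole testes, fewer cells of a type and less RNA per cell cannot be told apart. The labels' extraction text mentions retinas, but 7 photoreceptor markers summed to at most 0.897 FPKM and Crx and Nrl were at 0 in all 6 samples, whereas 10 Sertoli cell markers summed to at least 2065 FPKM in each.

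DNA methylation sits on CG pairs, and the start region of a gene need not be the imprinting control region of its domain. The sequences below are shown for the 3 genes with the smallest adjusted p, whose start regions are rich in CG pairs. They are RefSeq windows of 300 bases around the annotated start (build GRCm38.p6), read 5′ to 3′ on the gene's own strand, with every CG in capitals. The Ascl2 window is chr7:142969215-142969514 on the reverse strand and holds 23 CG. The Mest window is chr6:30737800-30738099 on the forward strand with 17, and the Plagl1 window is chr10:13090582-13090881 on the forward strand with 26, the more CG-rich start where several were listed.
Ascl2: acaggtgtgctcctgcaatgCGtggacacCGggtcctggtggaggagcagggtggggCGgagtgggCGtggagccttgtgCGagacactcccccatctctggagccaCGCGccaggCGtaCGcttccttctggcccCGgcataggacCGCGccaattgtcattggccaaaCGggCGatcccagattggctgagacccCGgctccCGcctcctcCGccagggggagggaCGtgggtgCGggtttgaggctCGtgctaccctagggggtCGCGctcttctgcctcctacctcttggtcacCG
Mest: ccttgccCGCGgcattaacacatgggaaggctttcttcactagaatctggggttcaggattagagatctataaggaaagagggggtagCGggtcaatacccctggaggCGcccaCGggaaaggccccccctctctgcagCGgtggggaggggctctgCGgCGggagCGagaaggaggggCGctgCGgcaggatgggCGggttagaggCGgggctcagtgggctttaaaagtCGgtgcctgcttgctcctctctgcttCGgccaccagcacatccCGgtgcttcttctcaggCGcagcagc
Plagl1: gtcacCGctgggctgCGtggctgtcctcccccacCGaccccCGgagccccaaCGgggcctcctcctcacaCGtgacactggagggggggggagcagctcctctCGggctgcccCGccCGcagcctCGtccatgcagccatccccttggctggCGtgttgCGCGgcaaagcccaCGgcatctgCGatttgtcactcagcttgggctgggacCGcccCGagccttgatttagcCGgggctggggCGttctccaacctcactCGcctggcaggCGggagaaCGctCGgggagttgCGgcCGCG

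Windows were found for 31 of the 37 genes (48 windows). They held a median of 11.5 CG, against 7 over the 32851 windows of all genes. Taking the CG-richest window of each gene, the median was 20 in 11 maternally expressed genes, 13 in 17 paternally expressed genes and 8 over 27025 genes. The letters TGCCGC, searched on both strands, are the motif that the imprint-protecting zinc finger protein ZFP57 recognises when it is methylated. They stood in 10 of the 48 windows (20.8%), against 11.6% of all windows. Some of the 48 nearly coincide, and with the CG-richest window of each gene the letters stood in 8 of 31 (25.8%), against 12.2%. The letters themselves hold a CG, and whether this difference goes beyond the higher CG count was not tested. There were 2 matches in the printed Mest window, 1 in that of Plagl1 and 0 in that of Ascl2. No methylation was measured in these samples, and a match of letters is not a bound site.

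No imprinted gene passed the adjusted threshold in either direction. Neither did any of the 16206 genes tested (0% lower and 0% higher), so the threshold did not separate the imprinted genes from the rest. At an unadjusted p under 0.05, 1 of the 33 was lower in cKO (Ascl2) and 8 were higher (Plagl1, Mest, Magel2, Rtl1, Peg12, Peg3, Zim1 and Asb4), beside 9.31% of all tested genes lower and 6.6% higher. A fit to the recovered reads, limma voom, called 0.376% of all tested genes lower and 0.136% higher, and 0 of the 33. When only the 13204 protein-coding genes were tested, 1.33% were called lower and 0.28% higher, and Ascl2 was then the 1 imprinted gene called (adjusted p = 0.0326).

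Counted by overlap, 9 of the 33 (27.3%) had all 3 cKO values over the Ctrl range, namely the 8 above and Impact. Over all tested genes this share was 10.3%. Ascl2 was the 1 gene with all 3 cKO values under the Ctrl range (3.03%), beside 12.8% of all tested genes, and the other 23 overlapped. Without Ctrl 2 the counts were 10 higher (30.3%) and 1 lower (3.03%), beside 13.5% and 15.9% of all tested genes. Such shares grow when a group holds fewer samples. Under TPM scaling 6 of the 33 were higher (18.2%) and 1 lower (3.03%), beside 9.73% and 12.6% of all tested genes. The higher count was 16 of 33 (48.5%) without Ctrl 1 and 15 of 33 (45.5%) without cKO 2, beside 16.1% and 16.4% of all tested genes. The cKO mean lay above the Ctrl mean, on the log2 scale, in 28 of the 33 genes (84.8%), beside 50.5% of all tested genes. It lay below the Ctrl mean in Ascl2, Phlda2, Inpp5f, Nap1l5 and Nnat.

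Split by class, the non-overlapping higher genes were 7 of 18 tested paternally expressed genes (38.9%) and 2 of 12 maternally expressed genes (16.7%, Zim1 and Asb4). In the mixed class they were 0 of 3, and over all tested genes the share was 10.3%. The class medians were nevertheless close. The median log2 fold change was 0.22 in the paternally expressed genes, 0.20 in the maternally expressed genes and 0.0027 over all tested genes. Without Ctrl 2 they were 0.16, 0.13 and -0.0034, and no test was made between the classes. Values of Ctrl 2 were the lowest of the Ctrl group in 21 of the 33 genes (63.6%), beside 37.3% of all tested genes.

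Markers of somatic cells also differed between the groups. Over all tested genes, 10.3% were higher and 12.8% lower without overlap, and 50.5% of means were above Ctrl. Of 7 Leydig cell markers, 4 lay over the Ctrl range in all 3 cKO samples, and their summed level was 576 to 755 FPKM in Ctrl and 800.0 to 913 FPKM in cKO. The 8 stromal markers summed to 919 to 1100.4 FPKM in Ctrl and 958 to 1536 FPKM in cKO, with 8 of 8 means above Ctrl and 1 not overlapping. Endothelial markers (6 genes) summed to 46.2 to 56.9 FPKM in Ctrl and 60.0 to 66.7 FPKM in cKO. Of these, 5 means were above Ctrl and 1 gene, Pecam1, was higher without overlap. The 5 myoid markers summed to 509 to 514 FPKM in Ctrl and 322 to 498 FPKM in cKO. Most of this sum was Acta2 (449 to 460 FPKM in Ctrl). Acta2 and Myh11 were lower and Des was higher, each without overlap. Of the 10 Sertoli cell markers, 3 were lower (Gata1, Cldn11 and Aard) and 1 higher (Amh) without overlap, and their summed levels overlapped (2065 to 3061 FPKM in Ctrl, 2748 to 3124 FPKM in cKO). Summed levels also overlapped for 6 macrophage markers (49.9 to 66.2 FPKM in Ctrl, 57.6 to 68.6 FPKM in cKO). The same held for 5 red blood cell markers (438 to 697 FPKM in Ctrl, 526 to 1479 FPKM in cKO), of which 5 of 5 means were above Ctrl. The part of these cell types, and of the lower germ cell markers, in the levels of the imprinted genes was not tested.

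**Figure D1:**
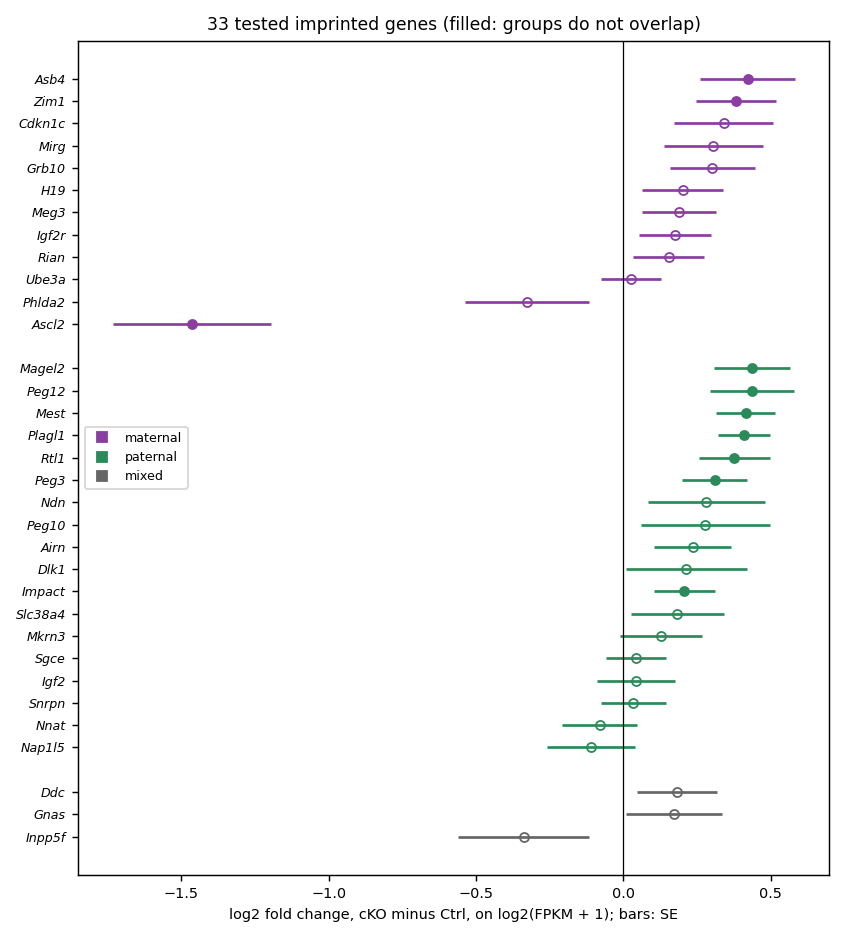
The horizontal axis gives the log2 fold change (cKO minus Ctrl, on log2 of FPKM + 1) of the 33 tested imprinted genes, with bars of 1 SE, coloured by class and filled where the groups did not overlap. The points of 28 genes lie right of 0, and Ascl2 lies apart at -1.46.

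The Kcnq1 domain on chromosome 7 held the largest difference. Ascl2 (chr7:142966829-142969264, reverse strand) encodes a basic helix-loop-helix transcription factor known from the placenta and from intestinal stem cells. It measured 1.52, 4.27 and 2.19 FPKM in Ctrl 1, 2 and 3 and 0.117, 0.258 and 0.439 FPKM in cKO 1, 2 and 3. These values stood for 40, 132 and 59 reads in Ctrl and 3, 7 and 11 reads in cKO, so cKO 1 was at the floor of 3 reads. The groups did not overlap, and the highest Ctrl value was that of Ctrl 2. The means were 2.66 ± 1.43 FPKM (SD, n = 3) in Ctrl and 0.271 ± 0.161 FPKM in cKO, 9.81-fold lower, with a log2 fold change of -1.46 (SE 0.27, limma adjusted p = 0.104). Without Ctrl 2 the log2 fold change was -1.17, and over all alternatives the adjusted p ran from 0.0326 to 0.325. None of its exon bases was shared with another annotated gene, and its start region is printed above.

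The neighbours of Ascl2 overlapped between the groups. Cdkn1c, a cyclin-dependent kinase inhibitor that restrains growth, measured 24.7, 30.8 and 28.5 FPKM in Ctrl and 36.7, 27.9 and 43.9 FPKM in cKO, with cKO 2 inside the Ctrl range. Phlda2, which limits placental growth, measured 0.441, 1.17 and 0.914 FPKM in Ctrl and 0.170, 0.588 and 0.635 FPKM in cKO, and the groups overlapped. The transporter gene Slc22a18 read 0.436, 0.371 and 0.355 FPKM in Ctrl and 0.411, 0.317 and 0.152 FPKM in cKO. Kcnq1ot1, the paternally expressed antisense RNA that silences these genes on its own chromosome, had 0.173, 0.0993 and 0.148 FPKM in Ctrl and 0.175, 0.206 and 0.165 FPKM in cKO. As with Ascl2, Ctrl 2 had the highest Ctrl value for Cdkn1c and Phlda2. The ratio of Cdkn1c to Phlda2 did not separate the groups, at 26.3 to 56.0 in Ctrl and 47.5 to 216 in cKO. Phlda2 rested on 8, 25 and 17 reads in Ctrl and 3, 11 and 11 reads in cKO. The ratio of 216 was that of cKO 1, where Phlda2 was at the floor of 3 reads.

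Among the higher genes, Plagl1 and Mest had the smallest p-values. Plagl1 (chr10:13060504-13131694, forward strand), a zinc finger transcription factor that restrains the cell cycle, measured 48.5, 40.9 and 44.0 FPKM in Ctrl 1, 2 and 3 and 60.2, 58.3 and 59.2 FPKM in cKO 1, 2 and 3. The 3 cKO values lay within a narrow band above all Ctrl values. Its mean was 44.5 ± 3.83 FPKM in Ctrl and 59.2 ± 0.915 FPKM in cKO (SD, n = 3 each), 1.33-fold higher, with a log2 fold change of 0.41 (SE 0.087, adjusted p = 0.119). Mest (chr6:30723547-30748465, forward strand) encodes a protein with an alpha/beta hydrolase fold and is a marker of mesoderm. It measured 35.8, 36.1 and 34.8 FPKM in Ctrl and 50.9, 41.7 and 51.3 FPKM in cKO, of which cKO 2 was the closest to Ctrl. Its log2 fold change was 0.41 (SE 0.10, adjusted p = 0.145). Of Mest's exon bases, 23.1% lie opposite exons of Copg2, whose level was lower in cKO (19.1, 21.6 and 19.8 against 16.3, 16.0 and 15.9 FPKM), and without known strand the reads of those bases cannot be told apart.

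In the Peg3 domain on chromosome 7, both tested genes were higher in every cKO sample, although they are grouped in opposite classes. Peg3 (chr7:6703892-6730431), a paternally expressed zinc finger gene, measured 30.2, 22.7 and 26.4 FPKM in Ctrl and 33.9, 32.0 and 32.5 FPKM in cKO, a log2 fold change of 0.31 (SE 0.11, adjusted p = 0.256). Zim1 (chr7:6671269-6696450), its maternally expressed zinc finger neighbour, measured 15.1, 13.7 and 15.2 FPKM in Ctrl and 20.7, 22.5 and 15.7 FPKM in cKO. Its log2 fold change was 0.38 (SE 0.14, adjusted p = 0.257), and cKO 3 exceeded the highest Ctrl value by little. Usp29, transcribed away from Peg3 and encoding a deubiquitinase, was below the filter and overlapped, at 0.294, 0.189 and 0.220 FPKM in Ctrl and 0.422, 0.265 and 0.412 FPKM in cKO (86, 65 and 66 and 120, 80 and 115 reads over its long exons). The ratio of Peg3 to Zim1 was 1.66 to 1.99 in Ctrl and 1.42 to 2.07 in cKO and so did not separate the groups.

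**Figure D2:**
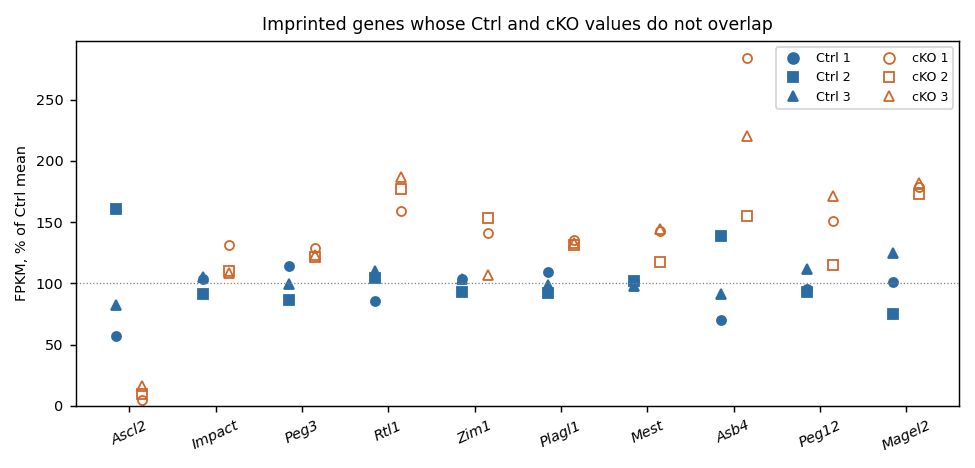
The vertical axis gives FPKM as a percentage of the Ctrl mean for the 10 imprinted genes whose Ctrl (filled) and cKO (open) values do not overlap, with 1 point per sample. Ascl2 is the 1 gene whose cKO points lie below 100%, at 4.41% to 16.5%.

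The Prader-Willi and Angelman domain, also on chromosome 7, held 2 of the higher genes. Magel2 (chr7:62377010-62381640), a MAGE family regulator of ubiquitin ligases, measured 0.814, 0.601 and 1.00 FPKM in Ctrl and 1.44, 1.40 and 1.47 FPKM in cKO, 1.78-fold higher (log2 fold change 0.44, SE 0.13, adjusted p = 0.199). The 3 cKO values nearly coincided, whereas those of Ctrl differed by more. Peg12 (chr7:62461871-62464510), a member of the Frat family that binds the kinase GSK3, measured 3.63, 3.56 and 4.27 FPKM in Ctrl and 5.75, 4.40 and 6.55 FPKM in cKO, with cKO 2 just above Ctrl 3. Its log2 fold change was 0.44 (SE 0.14, adjusted p = 0.224).

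The other 4 genes of this domain overlapped. Ndn, the MAGE family gene necdin and the most abundant of the domain, measured 65.4, 47.0 and 70.4 FPKM in Ctrl and 74.1, 58.7 and 90.3 FPKM in cKO. Mkrn3, a makorin known for its part in the timing of puberty, measured 2.84, 4.19 and 2.84 FPKM in Ctrl and 3.44, 3.78 and 3.69 FPKM in cKO. Snrpn, which encodes a core protein of the spliceosome, measured 4.75, 4.26 and 5.14 FPKM in Ctrl and 4.39, 4.69 and 5.49 FPKM in cKO. Its log2 fold change was 0.033 (95% interval of the difference -0.23 to 0.29). Ube3a, the maternally expressed ubiquitin ligase of the domain, measured 5.04, 5.00 and 4.95 FPKM in Ctrl and 5.41, 5.55 and 4.41 FPKM in cKO (log2 fold change 0.026, 95% interval -0.21 to 0.27). The ratio of Ndn to Magel2 was 70.3 to 80.3 in Ctrl and 42.0 to 61.5 in cKO, the only 1 of 10 ratios between neighbouring genes that did not overlap between the groups.

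The Dlk1-Meg3 domain on chromosome 12 held strongly expressed genes of both classes. Dlk1, which encodes a transmembrane protein related to Notch ligands, measured 162, 149.7 and 186 FPKM in Ctrl 1, 2 and 3 and 145, 188 and 258 FPKM in cKO 1, 2 and 3. Its cKO samples spanned a wider range than Ctrl, with cKO 1 below all Ctrl samples and cKO 3 above them. The long non-coding RNA Meg3 measured 38.4, 27.8 and 31.1 FPKM in Ctrl and 36.6, 39.1 and 34.8 FPKM in cKO. Rian, a non-coding host of small nucleolar RNAs, measured 24.1, 23.8 and 21.4 FPKM in Ctrl and 24.9, 22.6 and 30.4 FPKM in cKO, and Mirg, a host of miRNAs, 3.30, 1.97 and 2.89 FPKM and 3.48, 3.01 and 4.21 FPKM. All these groups overlapped. Without Ctrl 2 the log2 fold change of Meg3 went from 0.19 to 0.087 and that of Mirg from 0.31 to 0.15, and without cKO 3 that of Dlk1 went from 0.21 to 0.00046. The ratio of Dlk1 to Meg3 ran from 4.21 to 5.99 in Ctrl and from 3.98 to 7.41 in cKO.

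Rtl1 (chr12:109589193-109600330, reverse strand) was the 1 gene of the domain that did not overlap. It is a paternally expressed gene derived from a retrotransposon and needed in the placenta. It measured 0.573, 0.702 and 0.740 FPKM in Ctrl and 1.07, 1.19 and 1.25 FPKM in cKO, 1.74-fold higher, with a log2 fold change of 0.38 (SE 0.12, adjusted p = 0.219). The values stood for 59, 85 and 78 reads in Ctrl and 107, 126 and 123 reads in cKO. Without known strand, reads of the transcript opposite Rtl1, described next, cannot be told apart from these.

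Opposite Rtl1, the maternal chromosome is known to give a transcript that carries miRNAs which can cleave the Rtl1 RNA. Their sequences are shown because they are what links the maternal and paternal transcripts of this domain. The RefSeq mature forms, 1 for each of 6 hairpins (build GRCm38.p6, forward strand), are printed 5′ to 3′ with the seed, bases 2 to 8, in capitals.
mmu-miR-127-3p: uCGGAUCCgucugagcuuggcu
mmu-miR-136-5p: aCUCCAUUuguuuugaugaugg
mmu-miR-431-5p: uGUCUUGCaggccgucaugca
mmu-miR-432: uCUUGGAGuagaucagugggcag
mmu-miR-433-3p: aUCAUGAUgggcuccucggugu
mmu-miR-434-3p: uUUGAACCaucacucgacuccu

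No seed was shared among these 6. All 11 mature miRNAs listed for these hairpins were complementary to the Rtl1 transcript over their whole length. The libraries were made from poly(A) RNA and did not measure mature miRNAs. The 6 hairpins had 0 reads in all 6 samples. Over the imprinted genes as a whole, 33 annotated miRNA hairpins lay within a gene, 11 of them had any read, and they held 67 reads in total, 45 of them from hairpins on the strand of Mirg. The Mir675 hairpin of H19 and the Mir335 hairpin of Mest also had 0 reads. All 84 bases of Mir675 lie within exons of H19, which itself had 15123 to 18530 reads per sample. The 6 hairpins above lie opposite exons of Rtl1. How reads shared by genes were counted is not given, so a 0 at such a hairpin does not show that its RNA was absent.

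H19 and Igf2 on chromosome 7 are the textbook pair that share enhancers. H19 (chr7:142575529-142578143, reverse strand), a maternally expressed long non-coding RNA, was the most abundant imprinted gene and ranked 79 of 16206 by mean level. It measured 414, 323 and 406 FPKM in Ctrl 1, 2 and 3 and 415, 408 and 488 FPKM in cKO 1, 2 and 3, and the lowest value was that of Ctrl 2. The log2 fold change was 0.20 (95% interval -0.12 to 0.52, adjusted p = 0.505), and 0.087 without Ctrl 2. Igf2 (chr7:142650766-142666816, reverse strand), the fetal growth factor, measured 1.63, 1.41 and 1.86 FPKM in Ctrl and 1.70, 2.03 and 1.43 FPKM in cKO. Of its 5723 exon bases, 62.8% are shared on the same strand with Gm49394, a gene listed at 0 in all 6 samples. Counting both strands, 64.5% are shared with another gene, which leaves 2029 bases of its own. How shared reads were assigned is not given in the sources used here, so the low level of Igf2 and its ratio to H19 are uncertain. Snrpn had the next largest same-strand share, 27.3% with Gm38393, which measured at most 1.04 FPKM.

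**Figure D3:**
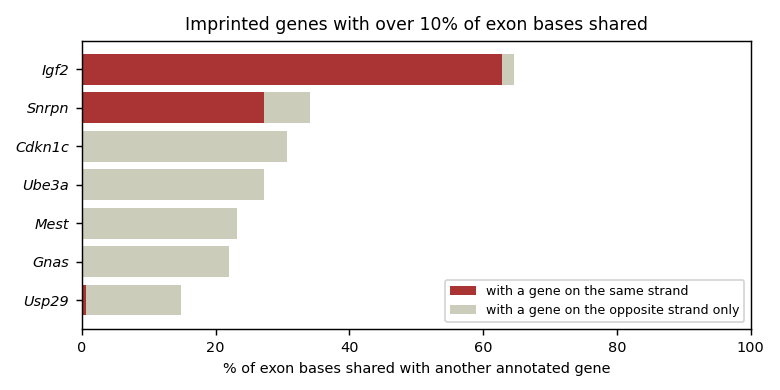
Bars give the percentage of exon bases shared with another annotated gene for the 7 imprinted genes over 10%, split into same-strand and opposite-strand partners. Igf2 and Snrpn are the 2 with over 10% on the same strand.

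The imprinted genes Grb10, Ddc, Igf2r and Airn overlapped between the groups. Grb10 (chr11:11930508-12038683), an adaptor that inhibits the insulin and IGF receptors, measured 36.6, 27.1 and 30.6 FPKM in Ctrl and 40.4, 32.9 and 43.7 FPKM in cKO (log2 fold change 0.30, 95% interval -0.037 to 0.64, adjusted p = 0.362). Ddc, its neighbour, which encodes the decarboxylase that makes dopamine and serotonin, measured 0.748, 0.553 and 0.797 FPKM in Ctrl and 0.755, 0.940 and 1.09 FPKM in cKO. Igf2r, the receptor that clears IGF2, had means of 13.2 ± 2.22 FPKM in Ctrl and 14.9 ± 0.964 FPKM in cKO (SD, n = 3 each). Airn, the paternal antisense RNA that silences Igf2r, had means of 2.66 ± 0.600 and 3.27 ± 0.0910 FPKM. The ratio of Igf2r to Airn was 4.70 to 5.21 in Ctrl and 4.40 to 4.83 in cKO.

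The Peg10-Sgce domain on chromosome 6 gave 1 higher gene. Asb4 (chr6:5383386-5433022), an ankyrin repeat and SOCS box protein, measured 0.283, 0.561 and 0.368 FPKM in Ctrl and 1.15, 0.624 and 0.889 FPKM in cKO, 2.20-fold higher by the means. Its log2 fold change was 0.42 (SE 0.16, adjusted p = 0.282), and the gap between Ctrl 2 and cKO 2 was small. Peg10, a retrotransposon-derived gene of the placenta, measured 9.98, 5.01 and 7.79 FPKM in Ctrl and 7.72, 10.2 and 9.59 FPKM in cKO, a log2 fold change of 0.28 that was 0.041 without Ctrl 2. Sgce, epsilon-sarcoglycan, measured 6.85, 6.76 and 7.61 FPKM in Ctrl and 7.11, 6.68 and 8.20 FPKM in cKO. Both overlapped.

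Of the genes outside these domains, Impact, an inhibitor of the stress kinase GCN2, measured 13.6, 12.0 and 13.8 FPKM in Ctrl and 17.3, 14.4 and 14.3 FPKM in cKO, without overlap but with an unadjusted p of 0.0855 (log2 fold change 0.21, adjusted p = 0.387). Nnat, neuronatin, measured 42.3, 36.1 and 40.8 FPKM in Ctrl and 32.2, 36.96 and 44.0 FPKM in cKO and overlapped. The amino acid transporter gene Slc38a4 had means of 9.51 ± 0.600 FPKM in Ctrl and 11.1 ± 2.78 FPKM in cKO (SD, n = 3 each), and its higher cKO mean came from cKO 1 alone. Gnas, which encodes the stimulatory G protein subunit, had means of 10.5 ± 2.13 and 11.9 ± 2.07 FPKM, and the phosphatase gene Inpp5f 6.28 ± 1.90 and 4.71 ± 1.15 FPKM. Nap1l5 (0.567 ± 0.103 and 0.457 ± 0.170 FPKM) and Rasgrf1 (0.0557 ± 0.00496 and 0.152 ± 0.0957 FPKM) had low levels in both groups.

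**Figure D4:**
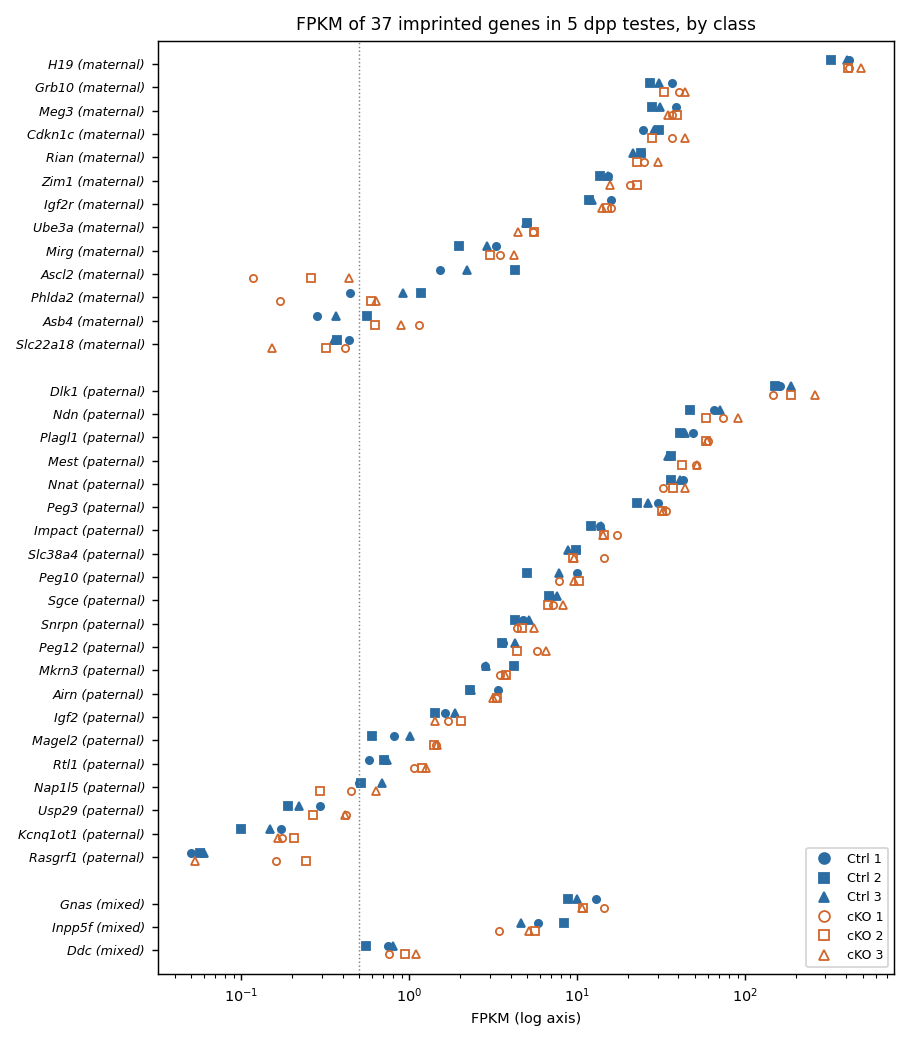
The horizontal axis gives FPKM (log axis) of the 37 imprinted genes, with 1 point per sample, Ctrl filled and cKO open, and a dotted line at the 0.5 FPKM used as the filter. Levels run from H19 at the top right to Rasgrf1, and within most genes the cKO points lie among or right of the Ctrl points.

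The 6 non-coding genes among the 37 were H19, Meg3, Rian, Mirg, Airn and Kcnq1ot1, and all but Kcnq1ot1 were tested. All 5 tested had means above Ctrl, beside 50.5% of all tested genes, and 0 of the 5 were without overlap. Meg3, Rian and Mirg lie in 1 domain, and Ctrl 2 was the lowest of the Ctrl group in 4 of the 5. The median log2 fold change of the 5 was 0.20, beside 0.19 for the 28 tested protein-coding genes.

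A further 39 imprinted genes, 26 of them tested, served as a comparison list. Their median log2 fold change was 0.027, with 14 means above Ctrl and 12 below. Of the 26, 6 were higher without overlap (23.1%) and 4 lower (15.4%), beside 10.3% and 12.8% of all tested genes. None of the 26 passed the adjusted threshold. Ins2, an insulin gene next to Igf2, was lower, at 1.84, 2.20 and 2.16 FPKM in Ctrl and 0.678, 0.913 and 0.345 FPKM in cKO (log2 fold change -0.91, adjusted p = 0.1001). Sfmbt2, a Polycomb group gene, was lower, at 2.36, 2.27 and 1.69 against 0.933, 1.42 and 0.922 FPKM (adjusted p = 0.163). Osbpl5, a lipid transfer gene of the Kcnq1 domain, was higher, at 10.9, 8.62 and 10.2 against 12.4, 13.4 and 12.3 FPKM, as was Begain of the Dlk1-Meg3 domain, at 3.90, 4.34 and 3.51 against 5.32, 5.03 and 5.18 FPKM. In the Peg3 domain, Zim2 (8, 30 and 8 reads in Ctrl, 1, 1 and 4 in cKO) and the zinc finger gene Zfp264 (25, 35 and 30 and 10, 3 and 7 reads) were below the filter and lower in every cKO sample, and both were singled out after their values were seen.

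Of 12 genes that set or protect imprints, 9 were tested and 0 passed the adjusted threshold. Kdm1b, a histone demethylase needed for maternal imprints, was lower in every cKO sample, at 5.94, 9.01 and 5.30 FPKM in Ctrl and 3.79, 3.32 and 3.17 FPKM in cKO (log2 fold change -0.78, adjusted p = 0.132). Smchd1, a chromatin protein of imprinted clusters, was also lower, at 5.81, 8.02 and 5.81 against 5.34, 5.09 and 4.84 FPKM, as was Uhrf1, the cofactor of maintenance methylation, at 35.4, 34.4 and 32.6 against 28.7, 25.5 and 30.0 FPKM. Dnmt3a, the de novo methyltransferase that sets imprints, was higher, at 9.85, 8.47 and 9.50 against 10.4, 11.9 and 10.4 FPKM. For Kdm1b and Smchd1 the highest Ctrl value was again that of Ctrl 2.

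The 15 genes of the insulin and IGF pathway were all tested. Their median log2 fold change was 0.17, and 0 passed the adjusted threshold. Above Ctrl were 13 means (86.7%), beside 50.5% of all tested genes. The RNA-binding protein gene Igf2bp1 was lower without overlap, at 2.08, 3.08 and 2.22 against 0.630, 1.57 and 1.08 FPKM (adjusted p = 0.167), whereas its paralogue Igf2bp2 was higher, at 4.02, 4.40 and 4.76 against 5.48, 5.99 and 6.65 FPKM (adjusted p = 0.171). The insulin receptor gene Insr (3.43, 2.71 and 3.16 against 3.81, 4.16 and 3.78 FPKM) and the binding protein gene Igfbp3 (49.1, 51.9 and 55.3 against 58.5, 57.0 and 85.6 FPKM) were higher without overlap.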

How the data were processed

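Polyadenylated RNA of 6 whole testes samples (5 dpp, 3 Ctrl and 3 cKO) was sequenced by the authors. Per the labels and the study's methods, reads were aligned to mm10 with HISAT2 (2.0.5) and counted per gene, and the deposited table holds FPKM values for 54532 genes in 6 sample columns, with gene positions and lengths. The annotation release, the handling of reads shared by genes and the use of strand are not given in the sources used here.

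FPKM multiplied by gene length gave whole reads for 100% of values (within 0.01 of a whole number), 15448191 to 18964743 per sample. Floors of 3 reads cover counting error only. Genes averaging 0.5 FPKM or more were tested on log2(FPKM + 1) with limma (3.58.1, R 4.3.3), using moderated statistics with a mean-variance trend, 2 groups and no covariate, two-sided, with Benjamini-Hochberg adjustment at 0.05. An exact permutation test of 3 against 3 samples cannot give a p below 0.1 and was not used. Replicates of a group differed by more than sampling noise (chi-square per degree of freedom 10.3 to 26.0), so each was counted. The fits were tested on simulated data.

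The imprinted genes, their classes and all lists were chosen with earlier results of these data known. Values per sample are given for genes without overlap, with unadjusted p under 0.05, among the 8 most abundant, or in the domain of such a gene. From the comparison lists, the 5 genes with the largest difference without overlap are named. Promoter windows and mature miRNAs were read from RefSeq (GRCm38.p6). Shared exon bases came from GENCODE, which gave 36 of 37 genes the same coordinates and length as the table, all but Impact.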

Additional observations from a re-analysis of the deposited data

How the results depend on the processing

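Of the 33 tested imprinted genes, 28 kept their direction under each of the 16 alternatives that gave them a value (15 for 10 of the 33 genes, which the higher filter or the test of protein-coding genes left out). Exceptions were Snrpn, at -0.050 on the log2 scale with sample weights and from -0.043 to 0.091 when each replicate was left out in turn, Igf2 (-0.040 to 0.12), Ube3a (-0.026 to 0.11), Nnat (-0.19 to 0.023) and Sgce (-0.030 to 0.10). The 1 imprinted gene ever called was Ascl2, in the test of protein-coding genes only, and leaving out a replicate called 0. Leaving out a replicate gave 10 to 16 of 33 imprinted genes higher without overlap (30.3% to 48.5%), beside 13.5% to 17.1% of all tested genes. It gave 1 to 2 lower (3.03% to 6.06%), beside 15.9% to 19.4%. Class medians were then 0.13 to 0.28 (maternally expressed) and 0.16 to 0.28 (paternally expressed), the lowest without Ctrl 2.

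The count of all genes called depended on the setting. Lower and higher calls numbered 176 and 37 for protein-coding genes only, 61 and 22 with limma voom on recovered reads, 55 and 13 with sample weights, 1 and 4 with TPM, and 0 and 1 with no mean-variance trend. Leaving out a replicate gave 0 to 15 and 0 to 3, the highest lower count, 15, without Ctrl 2. The replicate block gave 84 lower and 14 higher calls. The numbers are not shown to pair the samples: deviations of samples with the same number correlated at 0.066, 0.016 and 0.088, and 5 of 6 samples correlated best with their own number. The cause of these shifts was not tested. No alternative moved the median of all tested genes beyond 0.021. Srsf1 passed the threshold in 5 alternatives. Depth limits Ascl2, Phlda2, Slc22a18, Nap1l5 and Rasgrf1 most, with 3 to 9 reads in their lowest samples.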
